A study of Mus musculus with 4 samples.

Results

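The cells described here are immature olfactory sensory neurons that carry Gap43, a growth cone protein of extending axons. They were chosen by their own counts: a barcode was a member with at least 500 detected genes, at most 10% of its UMIs in mitochondrial genes, at least 5 Gap43 UMIs, at least 3 Gng8 UMIs, fewer than 20 Omp UMIs, at most 1 Tex15 UMI and at most 30 Cyp2g1 UMIs. UMIs, unique molecular identifiers, count captured RNA molecules. This rule took 1509 of 41911 barcodes, and the libraries female 1, female 2, male 1 and male 2 gave 411, 379, 358 and 361 of them. The 4 droplet libraries read the 5′ ends of transcripts from the main olfactory epithelium of 3-month-old C57BL/6J mice, all wild type and dissociated with papain, with 2 libraries per sex. The labels do not say whether the 2 libraries of a sex came from separate animals, so p-values measure the spread between these libraries, which may be technical.

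Olfactory sensory neurons are replaced throughout life. Basal progenitors that express the transcription factors Neurog1 and Neurod1 divide and give rise to immature neurons, which grow an axon to the olfactory bulb, take up expression of a single odorant receptor gene, and later gain Omp, cilia and the odorant transduction cascade. Gap43 and the G protein subunit gene Gng8 are the usual markers of the immature stage.

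The members were set beside other classes taken from the same libraries. Progenitors had at least 3 UMIs of Neurog1 and Neurod1 together, fewer than 5 of Gap43, and the same Omp, Tex15 and Cyp2g1 limits (616 barcodes). In this class 52.6% of barcodes had a UMI of Mki67, a gene of dividing cells, 96.6% of Tubb3 and 73.7% of Stmn2. It may thus hold non-dividing neuronal cells beside dividing ones. Omp-rich neurons had at least 20 Omp UMIs (19437 barcodes). Barcodes above the Tex15 limit (1460, called Tex15 neurons) and barcodes with more than 30 Cyp2g1 UMIs and little Gap43 (5942, called sustentacular-like after the supporting cells that express Cyp2g1) served as further reference. Members held a median of 11721, 12009, 11090 and 10675 UMIs in female 1, female 2, male 1 and male 2, and 4475, 4455, 4232 and 4200 genes. The 4 libraries totalled between 100725429 and 111577458 UMIs. Any pair of libraries shared 136 to 172 barcode sequences, and 1 such shared barcode was a member in both libraries of a pair. High doublet scores fell on 3.31% of the members and 14.0% of the Omp-rich neurons, and 10.9% of the Omp-rich neurons held more than 30 Cyp2g1 UMIs. Comparisons with Omp-rich neurons were therefore also made with those barcodes left out.

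Of the 4 markers of the label, Stmn2 and Nhlh1 were not used by the rule, and both were present in most members. Stmn2, which encodes a microtubule-destabilising protein of growth cones, was seen in 100% of members, with a median of 34 UMIs (lowest 1, highest 103). After each cell was thinned to 2000 UMIs, to set depths equal, 99.2% of members still had a Stmn2 UMI, against 7.62% of sustentacular-like cells. Nhlh1, a basic helix-loop-helix factor of newly formed neurons, was seen in 88.6% of members and in 4.73% of sustentacular-like cells (48.9% and 1.10% after thinning). Neither marker was particular to the members: Nhlh1 was seen in 84.4% of progenitors (52.2% after thinning), and Stmn2 in 82.0% of thinned Tex15 neurons. Omp was seen in 80.1% of members and 80.2% of sustentacular-like cells, and in 35.8% and 27.0% after thinning, with a median of 2 UMIs in both classes, so a low Omp count in a member was within background.

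Marker lists of other cell types were low but not absent. The 6 sustentacular genes summed to between 674 and 1508 CPM in members (UMIs of a gene for every 1000000 UMIs of the class), against 54282 to 60178 in sustentacular-like cells. Summed levels in members were 59.6 to 110 CPM for 6 microvillar genes, 8.47 to 64.8 for 4 horizontal basal cell genes, 8.45 to 144 for 6 immune genes, 3.49 to 48.2 for 4 glial genes, 26.7 to 51.0 for 5 stromal and vessel genes, and 231 to 3227 for 4 respiratory genes. No gene of these lists was at 0 in the members of all libraries together. The 8 genes of a dissociation response list summed to 1568 to 3229 CPM in members, 1313 to 1948 in progenitors and 3496 to 4043 in Omp-rich neurons. The list's median log2 difference was 1.20 from progenitors and -0.77 from Omp-rich neurons, although none of these genes was called in either stage comparison. Their part in the results was not tested, except where a value is given below.

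The following values describe barcodes on either side of the limits, without a test. Stmn2 stood at 2272 CPM in the 64 members with 5 to 7 Gap43 UMIs and at 1753 CPM in the 73 barcodes with 2 to 4 that met every other limit. The corresponding values were 2862 CPM in 157 members with 3 to 4 Gng8 UMIs and 2428 CPM in 198 barcodes with 1 to 2. At the Omp limit, Nhlh1 stood at 190.3 CPM in the 158 members with 10 to 19 Omp UMIs and at 118 CPM in the 109 barcodes with 20 to 29.

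Members made up 4.02% of the quality-passing barcodes of female 1 (exact 95% binomial interval 3.65 to 4.42, counting error only). Their shares in female 2, male 1 and male 2 were 3.88%, 3.70% and 3.59%. The female mean was 3.95% ± 0.0987 (SD, n = 2) and the male mean 3.65% ± 0.0846 (n = 2). Both female libraries lay above both male libraries. The two-sided exact permutation test over libraries gave p = 0.333, the smallest value that 2 against 2 allows, so the design cannot place this difference beyond the spread. Without the Tex15 and Cyp2g1 limits the sexes overlapped (exact permutation p = 1).

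Stage levels were compared within each library on summed UMIs of a class, scaled to CPM. A gene was called higher or lower when its CPM differed at least 2-fold in the same direction in each of the 4 libraries, among genes with a mean of at least 10 CPM in either class. Because the members were selected on Gap43, Gng8, Omp, Tex15 and Cyp2g1 in the same cells, these comparisons are descriptions without a test, and the genes named in a class's rule were left out of the counts. Of 10290 genes counted against progenitors, 1491 were higher in immature neurons (14.5%) and 1203 lower (11.7%). Of 10165 counted against Omp-rich neurons, 924 were higher (9.09%) and 1036 lower (10.2%). These shares are the background for the list counts below, and a list count near them is no feature of the list. TMM scaling, which resets the library totals, moved the median log2 difference of all genes against Omp-rich neurons by -0.20, from 0.17 to -0.03, and the counts to 673 higher and 1347 lower. On CPM without TMM, leaving out Omp-rich barcodes of more than 30 Cyp2g1 UMIs gave 1050 higher and 789 lower. Against both classes at once, 248 of 9551 genes were highest in the immature neurons (2.6%) and 99 were lowest (1.04%), or 188 and 126 after TMM scaling. Of the 248, 246 were not odorant receptors, and 210 of these were also above the Tex15 neurons in every library, by any margin.

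The genes that chose the members show the scale of the gate. Gap43 (chr16:42248442-42340651 on GRCm38, minus strand) stood at 2026, 2271, 2387 and 2398 CPM in the members of female 1, female 2, male 1 and male 2, at 15.0 to 25.9 CPM in progenitors and at 121 to 139 in Omp-rich neurons. Gng8 (chr7:16891786-16895436) stood at 964, 1102, 1300 and 1235 CPM in the members, at 297 to 462 in progenitors and at 40.0 to 51.2 in Omp-rich neurons. The progenitor rule itself capped Gap43 at fewer than 5 UMIs and set no limit on Gng8.

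**Figure D1:**
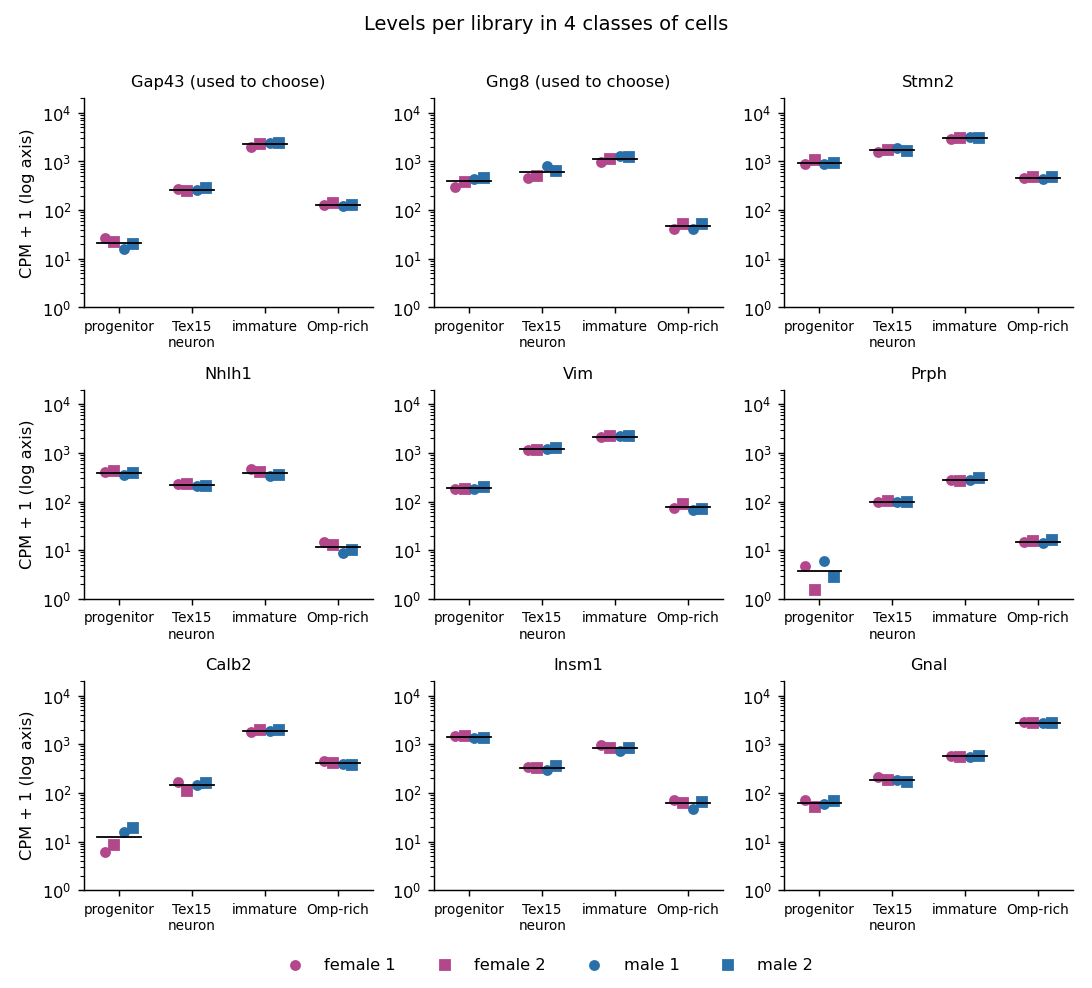
Levels of 9 genes in each library (CPM + 1, log axis) in 4 classes of cells. Points are libraries (circles replicate 1, squares replicate 2, by sex) and the line is their mean. Gap43 and Gng8 were used to choose the members. Stmn2, Vim, Prph and Calb2 were highest in immature neurons in every library, Nhlh1 was as high in progenitors, and Gnal was highest in Omp-rich neurons.

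Cytoskeletal genes of axon growth were higher in the members than in Omp-rich neurons in most cases. Of 27 counted genes of the growth cone and cytoskeleton list, 14 were higher than in progenitors and 3 lower, 21 were higher than in Omp-rich neurons and none lower, and 11 were higher than in both. The list's median log2 difference was 1.13 against progenitors, where the median of all genes was 0.06, and 2.06 against Omp-rich neurons, where it was 0.17. Stmn2 stood at 2869, 3048, 3217 and 3015 CPM in the members of female 1, female 2, male 1 and male 2, at 881 to 1048 in progenitors and at 444 to 483 in Omp-rich neurons. No library of another class reached the members' range. Dpysl3, a collapsin response mediator that couples guidance signals to the cytoskeleton, stood at 1395, 1578, 1634 and 1609.6 CPM, 2.2-fold above progenitors and 18.1-fold above Omp-rich neurons in mean CPM. Tmsb10, an actin-binding thymosin, averaged 7255 ± 864 CPM (SD, n = 4), against 3053 ± 398 in progenitors and 859 ± 60.9 in Omp-rich neurons.

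Microtubule genes divided by stage. Kif21b, a kinesin motor, averaged 159.8 ± 4.06 CPM in the members, 3.29 ± 0.877 in progenitors and 17.1 ± 1.79 in Omp-rich neurons. Dcx, a microtubule-binding protein of young neurons, averaged 308 CPM against 27.2 and 94.9 in the same classes, and Mapt, the tau gene, 187 against 7.7 and 44.6. Mapt was not particular to the neurons, with a mean of 186 CPM in sustentacular-like cells. Tuba1a and Stmn3 were also higher than in both. Stmn4 stood between its neighbours, at 266 CPM against 14.1 in progenitors and 493 in Omp-rich neurons. Tubb3 was not called against progenitors (-0.41 on the log2 scale), and the 3 genes lower than in progenitors were Dbn1, Cd24a and Tagln3. Cd24a fell outside the pattern of the list, with 11.2 CPM in members, 170.5 in progenitors and 13.8 in Omp-rich neurons.

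Among the 20 genes with the largest excess over both classes, 2 of the first 4 encode intermediate filament proteins. Prph, peripherin, ranked first. It stood at 282, 269, 271 and 299 CPM in the members of female 1, female 2, male 1 and male 2, at a mean of 2.78 in progenitors, 94.6 to 103 in Tex15 neurons and 12.9 to 15.1 in Omp-rich neurons, with no overlap between classes. Its log2 difference was 6.39 ± 0.87 from progenitors and 4.23 ± 0.08 from Omp-rich neurons (SD, n = 4). Vim, vimentin, stood at 2087, 2181, 2209 and 2187 CPM in the members, 178 to 198 in progenitors, 1119 to 1230 in Tex15 neurons and 65.3 to 89.1 in Omp-rich neurons. Both genes were therefore intermediate in the Tex15 neurons. Ina, alpha-internexin, averaged 345 CPM against 26.6 in progenitors and 52.5 in Omp-rich neurons, and Nefh, the heavy neurofilament chain, 19.3 against 1.68 and 4.55. These last 2 were picked out after their values were seen.

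The promoters of Prph and Vim are shown because these genes peaked together and each carries the letters TATAAA close to its start. The sequences are the 250 bases before the start in RefSeq on GRCm38.p6 (Prph chr15:99054924-99055173, plus strand; Vim chr2:13574061-13574310, plus strand), with each TATAAA match on either strand in capitals.
Prph: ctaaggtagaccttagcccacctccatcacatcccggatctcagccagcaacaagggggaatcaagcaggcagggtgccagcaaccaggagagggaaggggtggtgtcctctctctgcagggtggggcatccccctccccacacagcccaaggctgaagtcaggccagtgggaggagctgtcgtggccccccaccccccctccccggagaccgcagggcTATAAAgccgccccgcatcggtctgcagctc
Vim: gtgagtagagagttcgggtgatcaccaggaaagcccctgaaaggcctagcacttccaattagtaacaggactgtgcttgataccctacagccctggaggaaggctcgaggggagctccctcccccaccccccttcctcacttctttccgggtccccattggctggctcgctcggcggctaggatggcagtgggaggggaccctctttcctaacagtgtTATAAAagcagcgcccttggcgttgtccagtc
The match begins 31 bases before the start of Prph and 32 bases before that of Vim. Of 27025 promoters of the same length, 13% held TATAAA on either strand anywhere in the 250 bases. The share with a match as near the start was not counted. A match is a description of the letters and not of a bound site. A count of motifs over all genes highest in the members was void, because only 182 of the 246 (74.0%) had a promoter in the table.

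The other leading genes of this set had varied roles. Stk32a, a serine/threonine kinase gene, averaged 498 ± 14.1 CPM in the members (SD, n = 4), 19.3 ± 4.16 in progenitors and 30.8 ± 2.99 in Omp-rich neurons. Ly6h, of the Ly6 family of surface proteins, averaged 454 ± 17.2 CPM against 22.0 and 52.1 in the same classes. Gng3, a G protein gamma subunit, averaged 90.0 ± 14.1 CPM against 4.43 and 11.7. Galnt6 and Galnt18, which start O-linked glycosylation, Pde8a, a cyclic AMP phosphodiesterase, Dock5, an exchange factor for Rac, Ablim1, an actin-binding protein, and Nrcam, a cell adhesion molecule of axons, were among the remainder. The others were Glipr2, Dkkl1, Ccn3, Mia, Ece2, Apold1, Bfsp2 and Vwa5b2. Levels of the 20 ranged from 11.3 CPM for Apold1 to 2166 CPM for Vim. Ablim1, Apold1, Bfsp2 and Galnt18 were as high in the Tex15 neurons, where they averaged 141, 9.83, 13.2 and 43.1 CPM against 118, 11.3, 12.2 and 41.0 in the members.

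Calb2 and Mef2b had the largest differences from progenitors. Calb2, which encodes the calcium-binding protein calretinin, stood at 1756, 1921, 1897 and 1925 CPM in the members of female 1, female 2, male 1 and male 2, 5.18 to 17.6 in progenitors and 369 to 448 in Omp-rich neurons, a log2 difference of 7.39 ± 0.70 and 2.21 ± 0.18 (SD, n = 4). Mef2b, a transcription factor gene of the MEF2 family, averaged 671 ± 16.8 CPM against 4.02 ± 1.35 in progenitors and 141 ± 19.4 in Omp-rich neurons. Every library of the members lay above every library of the other classes for both genes. The other 8 of the 10 genes furthest above progenitors were Prph, Mia, Kif21b, Caly, Ccn3, Nacad, Fam92b and the receptor gene Olfr1260. Caly, Nacad and Fam92b did not reach a 2-fold difference from Omp-rich neurons in all libraries; Fam92b averaged 248 CPM in members and 222 in Omp-rich neurons. Olfr1260 averaged 64.4 ± 40.3 CPM (SD, n = 4) in the members and came from 8 members.

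**Figure D2:**
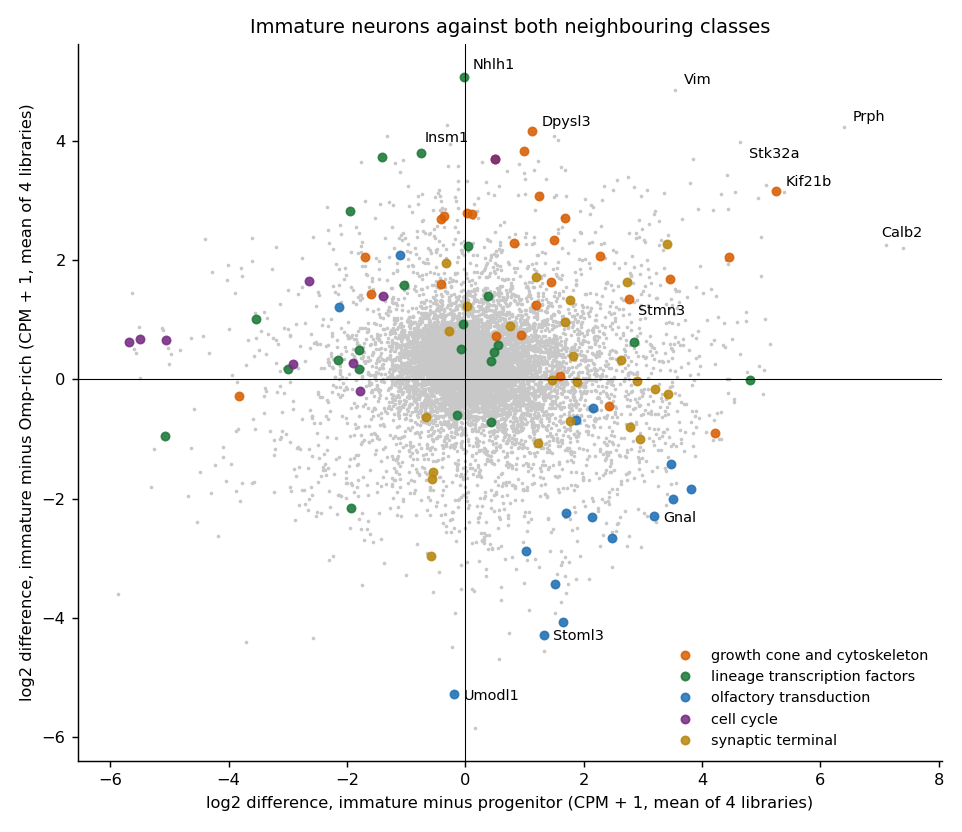
Each gene's log2 difference between immature neurons and progenitors (horizontal) and Omp-rich neurons (vertical), as the mean of 4 libraries on CPM + 1. Grey points are all genes counted in both comparisons except odorant receptors, and colours mark 5 lists (Stmn1 is in 2 of them). Growth cone genes sit in the upper part, transduction genes in the lower right, and cell cycle genes on the left.

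Proliferation genes were low in the members. Of 20 cell cycle genes counted, 19 were lower than in progenitors and none higher, with a median log2 difference of -4.98. Mki67, the proliferation marker, stood at 6.62, 12.9, 13.9 and 6.23 CPM in the members of female 1, female 2, male 1 and male 2 and at 480.1 to 609.5 in progenitors. A Mki67 UMI was seen in 1.99% of members and 3.08% of sustentacular-like cells, so the level in members was within background. The exception was Stmn1, also a growth cone gene, at 1366 CPM in members and 964 in progenitors. The 10 genes furthest below progenitors were Slc43a1, Sez6l2, Chrna9, Ppp1r14a, Sult6b1, Stil, Fbxo5, Mki67, Pclaf and Ube2c, of which Stil, Fbxo5, Mki67, Pclaf and Ube2c act in cell division. Chrna9, an acetylcholine receptor subunit gene, averaged 81.7 CPM in progenitors and 0.362 in members.

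Lineage transcription factors followed several courses over the stages. Of 24 counted against progenitors, 10 were lower and 2 higher. Over all genes, 11.7% were lower and 14.5% higher. Of 23 counted against Omp-rich neurons, 7 were higher and 1 lower, where the shares over all genes were 9.09% and 10.2%. Nhlh1 (chr1:172052292-172057573, minus strand) stood at 455, 399.9, 341 and 346 CPM in the members of female 1, female 2, male 1 and male 2, at 348 to 424 in progenitors and at 7.94 to 13.4 in Omp-rich neurons. Its ranges in progenitors and members overlapped, and it had the largest difference from Omp-rich neurons among the counted genes that were higher in members (log2 5.08 ± 0.14, SD, n = 4). Nhlh2, its close relative, was lower in members (65.8 CPM) than in progenitors (257 CPM), and higher than in Omp-rich neurons (8.44 CPM). Insm1, a zinc finger factor of neuronal differentiation, averaged 839.8 ± 91.3 CPM against 1408 ± 81.8 in progenitors and 60.0 ± 10.1 in Omp-rich neurons. In the Tex15 neurons Insm1 was lower than in either neighbour, at 329.6 ± 27.8 CPM. That class also held more RNA of other cells than the members. Its sustentacular genes summed to 3209 to 5523 CPM, against 674 to 1508 in members, and its respiratory genes to 4067 to 18866, against 231 to 3227. The part of such RNA in the low Insm1 level was not tested. Sox11, a factor of young neurons, averaged 619 CPM against 1642 and 45.7 in progenitors and Omp-rich neurons.

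The Nhlh1 promoter is shown because, of the genes higher in members, Nhlh1 differed most from Omp-rich neurons, and because its protein belongs to the class that binds E-boxes, CANNTG. It is taken from RefSeq on GRCm38.p6 (chr1:172057597-172057846, minus strand), 250 bases before the start, with the E-box in capitals.
Nhlh1: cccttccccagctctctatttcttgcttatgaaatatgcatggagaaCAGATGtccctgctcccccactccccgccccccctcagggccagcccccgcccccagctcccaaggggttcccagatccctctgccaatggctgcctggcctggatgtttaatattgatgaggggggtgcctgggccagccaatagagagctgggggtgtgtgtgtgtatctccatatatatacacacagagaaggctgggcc
The only match begins 203 bases before the start. CANNTG reads the same on both strands, and 66.0% of the 27025 promoters of this length held at least 1 match.

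Hes6 and Lhx2 were lower in the members than in progenitors. Hes6, a factor of the Hes family that favours neuronal differentiation, averaged 67.5 ± 4.83 CPM in members and 793 ± 78.3 in progenitors (SD, n = 4). Lhx2, a LIM homeodomain factor needed for receptor expression, averaged 377 CPM in members, 1679.7 in progenitors and 300.2 in Omp-rich neurons. The Ebf family differed by member. Ebf1, Ebf2 and Ebf3 passed neither comparison, while Ebf4 averaged 203 ± 18.1 CPM in members, 6.81 ± 3.1 in progenitors and 204 ± 8.53 in Omp-rich neurons. Atf5, a factor of the unfolded protein response that links receptor translation to maturation, stood at 2910.5, 3086, 2886 and 3104 CPM in the members, 361 to 486 in progenitors and 1807 to 2109.9 in Omp-rich neurons. Atf5 and Ebf4 were the 2 factors higher than in progenitors. Sox2, a stem cell factor also expressed in supporting cells, averaged 4.29 CPM in members and 22.4 in Omp-rich neurons, and its log2 difference turned from -2.16 to 0.19 when Omp-rich barcodes with more than 30 Cyp2g1 UMIs were left out. The same step took the count of genes lower than in both classes from 99 to 31.

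The list of receptor choice and unfolded protein response genes was mixed. Of 18 genes, 7 were higher and 2 lower than in progenitors, and 5 higher and 2 lower than in Omp-rich neurons. Over all genes the shares were 14.5% and 11.7% against progenitors, and 9.09% and 10.2% against Omp-rich neurons. The counts of lower genes were thus near those of all genes. Trib3 and Sesn2, stress-induced regulators, were higher than in both, at 72.1 ± 10.3 and 54.7 ± 6.69 CPM in members, 3.55 and 7.18 in progenitors, and 25.6 and 15.8 in Omp-rich neurons. The receptor transport genes Rtp1 and Rtp2 averaged 367 and 196 CPM in members, 19.2 and 14.2 in progenitors, and 591 and 449.5 in Omp-rich neurons. Kdm1a, the histone demethylase Lsd1, was not called against progenitors (-0.87) and was higher than in Omp-rich neurons (324 against 113 CPM). Lbr, the lamin B receptor, averaged 20.4 CPM in members and 71.3 in progenitors. Hspa5 and Hsp90b1, chaperones of the endoplasmic reticulum, passed neither comparison.

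**Figure D3:**
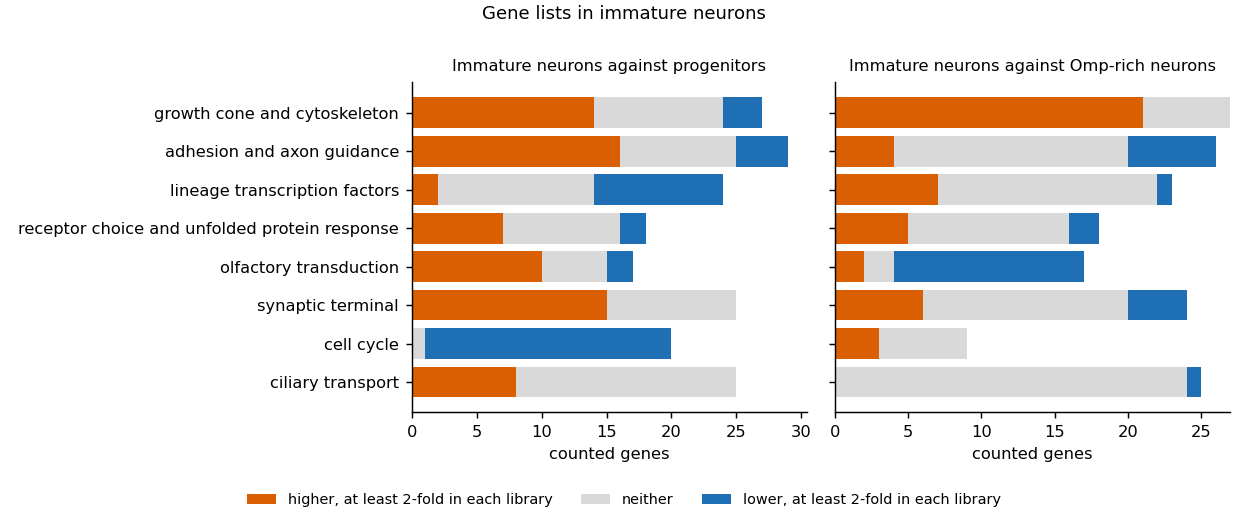
Counted genes of 8 lists that were higher (orange), lower (blue) or neither (grey) in immature neurons than in progenitors (left) and than in Omp-rich neurons (right). Growth cone genes were mostly higher than in Omp-rich neurons, transduction genes mostly lower, and 19 of 20 cell cycle genes were lower than in progenitors.

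Transduction genes were intermediate. Of 17 counted, 10 were higher and 2 lower than in progenitors, while 2 were higher and 13 lower than in Omp-rich neurons, with a median log2 difference of 1.70 and -2.29. Gnal, the olfactory G protein alpha subunit, stood at 576, 552, 545 and 584 CPM in the members of female 1, female 2, male 1 and male 2, 51.4 to 71.1 in progenitors and 2713 to 2878 in Omp-rich neurons. Cnga2, a subunit of the cyclic nucleotide-gated channel, averaged 232 ± 16.3 CPM against 16.3 and 826 in those classes. Its partner subunits were lower by a wider margin against Omp-rich neurons, with Cnga4 at 25 against 429 CPM and Cngb1 at 44.0 against 284. Adcy3, the adenylyl cyclase of the cascade, averaged 114 CPM in members, 39.5 in progenitors and 1249 in Omp-rich neurons. Stoml3 and Umodl1, genes of mature neurons, were not called against progenitors and stood 19.5-fold and 39.5-fold lower than in Omp-rich neurons. Gnas, the widely expressed G protein alpha subunit, had the opposite order, with 1669, 379 and 162 CPM in progenitors, members and Omp-rich neurons.

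The genes furthest from Omp-rich neurons included several already described. The 10 furthest above were Nhlh1, Vim, Fabp5, Prph, Dpysl3, D430019H16Rik, Thsd7b, Rnf144a, Stk32a and Ooep. Fabp5, a fatty acid-binding protein, averaged 320.4 ± 37.2 CPM in members, 399 in progenitors and 15.8 in Omp-rich neurons. The 10 furthest below were S100a5, Umodl1, 1700012B09Rik, Clip4, Olfr1428, Avp, Phospho1, Kcns3, Kcnc4 and Nrn1l. S100a5, a calcium-binding protein of mature olfactory neurons, averaged 207 ± 52.5 CPM in members, 184 ± 36.1 in progenitors, 236 in sustentacular-like cells and 11845 in Omp-rich neurons. The members' S100a5 level was thus no higher than that of sustentacular-like cells. The voltage-gated potassium channel genes Kcns3 and Kcnc4 averaged 3.78 and 10.0 CPM in members and 124 and 281 in Omp-rich neurons.

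Most synaptic genes were higher than in progenitors. Of 25 counted, 15 were higher than in progenitors and none lower, and of 24 counted against Omp-rich neurons 6 were higher and 4 lower. The shares over all genes were 14.5% and 11.7% against progenitors, and 9.09% and 10.2% against Omp-rich neurons. Snap25, of the vesicle fusion machinery, averaged 218 CPM in members, 31.0 in progenitors and 379 in Omp-rich neurons. Nrxn2, a presynaptic adhesion gene, was higher than in both classes, at 88.8 ± 1.94, 7.65 and 17.7 CPM. Stx1a, a syntaxin of vesicle fusion, was also higher than in both. Slc17a6, the vesicular glutamate transporter, averaged 26.0 CPM in members and 39.4 in progenitors, against 209 in Omp-rich neurons.

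Adhesion and guidance genes differed by family. Of 29 counted against progenitors, 16 were higher and 4 lower, and of 26 counted against Omp-rich neurons, 4 were higher and 6 lower. For all genes these shares were 14.5% and 11.7% against progenitors, and 9.09% and 10.2% against Omp-rich neurons. Nrp1, a semaphorin receptor whose level orders axons in the bulb, averaged 130.5 ± 11.4 CPM in members, 3.62 in progenitors and 38.4 in Omp-rich neurons. L1cam and Nrcam, adhesion molecules of growing axons, were likewise higher than in both. Kirrel2 and Kirrel3, whose proteins sort axons of like receptor, averaged 186 and 26.1 CPM in members and 889 and 77.6 in Omp-rich neurons, and Plxna3, Plxna4, Epha5 and Efna3 were lower than in Omp-rich neurons too. Cxcr4 and Dcc, receptors that guide migration and axons, averaged 2.52 and 1.09 CPM in members and 67.6 and 15.1 in progenitors. Of 25 ciliary transport genes, 8 were higher than in progenitors, and 1 (Bbs1) was lower than in Omp-rich neurons. Of the cytosolic ribosomal protein genes, 1 of 88 was higher and 6 lower than in progenitors, and 3 of 87 were higher than in Omp-rich neurons. Few passed the 2-fold rule, but as a set they stood between the classes. Their median log2 difference was -0.70 from progenitors and 0.59 from Omp-rich neurons. Summed levels were 104580 to 115700 CPM in progenitors, 64452 to 71033 in members and 42673 to 45177 in Omp-rich neurons.

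Most members already held an odorant receptor transcript. A receptor of at least 3 UMIs was seen in 82.7% and 78.9% of the members of the female libraries 1 and 2, and in 75.4% and 84.8% of those of the male libraries 1 and 2, a mean of 80.5% ± 4.14 (SD, n = 4). The share was 3.44% in progenitors, 8.88% in Tex15 neurons and 95% in Omp-rich neurons. Sustentacular-like cells, which should lack receptors, had 9.33% at median depths of 13669 to 14097.5 UMIs, above the members' 10675 to 12009. After thinning to 2000 UMIs the shares were 63.3% in members, 89.5% in Omp-rich neurons and 1.66% in sustentacular-like cells (1 member was too shallow). Members thus lay between progenitors and Omp-rich neurons in every library at either depth.

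A single receptor was the rule among them. Exactly 1 receptor reached 3 UMIs in 74.6% of members, and 7.30% ± 1.75 (SD, n = 4) of members with any receptor had 2 or more, against 11% in Omp-rich neurons. With Omp-rich barcodes of more than 30 Cyp2g1 UMIs left out, the Omp-rich share was 8.30% ± 0.70, within the spread of the members, and in female 1 the members stood higher (9.41% against 8.44%). With the depths set equal, the members' shares were 5.58%, 1.27%, 1.41% and 1.98% in female 1, female 2, male 1 and male 2 (mean 2.56%, or 1.55% without female 1), against a mean of 5.44% in all Omp-rich neurons. Female 1 stood above the other libraries, and its members were close to its Omp-rich neurons (5.39%). The members' shares rest on 251, 236, 213 and 253 thinned members with a receptor in the same order of libraries. Few cells therefore held 2 or more, and counting error was not assessed. Receptor UMIs had a median of 31.5 per member and 67.8 per Omp-rich neuron, as means of the 4 libraries. The members used 481 of 1102 receptor genes at this threshold, and 79 receptors had at least 5 members. Olfr1348 had 19 members (3, 10, 3 and 3 in female 1, female 2, male 1 and male 2) and Olfr536 had 18 (2, 10, 3 and 3). Of receptor genes that passed the CPM filter, 44 of 95 were higher than in progenitors and 52 of 211 were lower than in Omp-rich neurons.

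**Figure D4:**
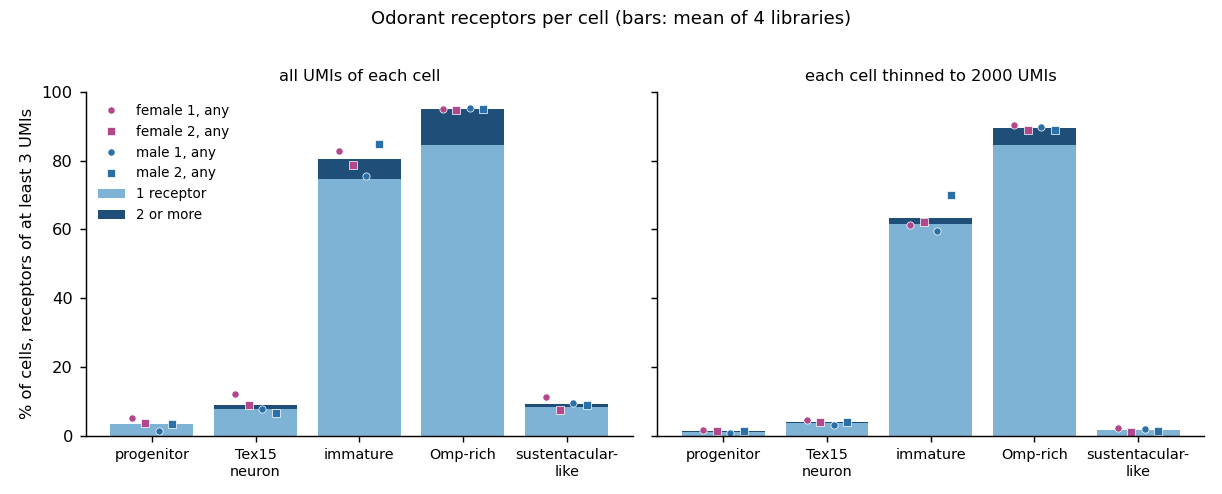
Percentage of cells with 1 receptor (light) or at least 2 receptors (dark) of 3 or more UMIs, as the mean of 4 libraries. Points give the share with any receptor in each library. The left panel uses all UMIs and the right panel cells thinned to 2000 UMIs. Immature neurons stood at 80.5% and 63.3%, between progenitors and Omp-rich neurons.

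The members were also compared among themselves by their Omp UMIs. Omp was used to choose the members, so what follows is a description. There were 300 members with no Omp UMI, 863 with 1 to 4, 188 with 5 to 9 and 158 with 10 to 19. In 95% of sustentacular-like cells the Omp count was 7 or less, so the lower groups cannot be told apart from background by Omp alone. Median depth was 10404 UMIs in the first group and 13211 in the last, and its part in the differences was not tested. Gap43 averaged 2228 ± 219, 2273 ± 149, 2389 ± 264 and 2183 ± 119 CPM over the 4 groups (SD, n = 4 libraries), and Stmn2 3143 ± 196, 3074 ± 143, 2909 ± 144 and 2866 ± 152. Neither showed an order over the groups beyond the spread of the libraries, apart from a slightly lower Stmn2 level at more Omp.

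Other genes differed with Omp inside the gate. Nhlh1 averaged 451 ± 56.3, 431 ± 63.9, 302 ± 60.9 and 187 ± 35.7 CPM, Vim 2638 ± 133, 2386 ± 61.3, 1632 ± 135 and 1100 ± 90.4 and Prph 392 ± 49.4, 302 ± 20.6, 185 ± 46.7 and 131 ± 37.8, in the same order of groups. Sox11 and Mapt followed the same order. In the opposite direction, Gnal averaged 217 ± 40.0, 372 ± 26.0, 946 ± 106 and 1509 ± 105 CPM, Stoml3 145 ± 20.5, 205 ± 13.4, 631 ± 123 and 1504 ± 44.4 and Kirrel2 103 ± 6.35, 146 ± 15.8, 268 ± 47.0 and 391 ± 91.2. Calb2 and Rtp1 were also higher at more Omp, at 2627 ± 241 and 544 ± 59.6 CPM in the last group against 1400.2 ± 103 and 303 ± 34.6 in the first. A receptor of at least 3 UMIs was held by 77.2%, 79.1%, 85.1% and 88.7% of members in the 4 groups. Female 2 and male 2 did not follow this order. The shares over the groups were 74.4%, 80.5%, 78.7% and 79.5% in female 2, and 85.7%, 81.2%, 91.5% and 92.9% in male 2.

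**Figure D5:**
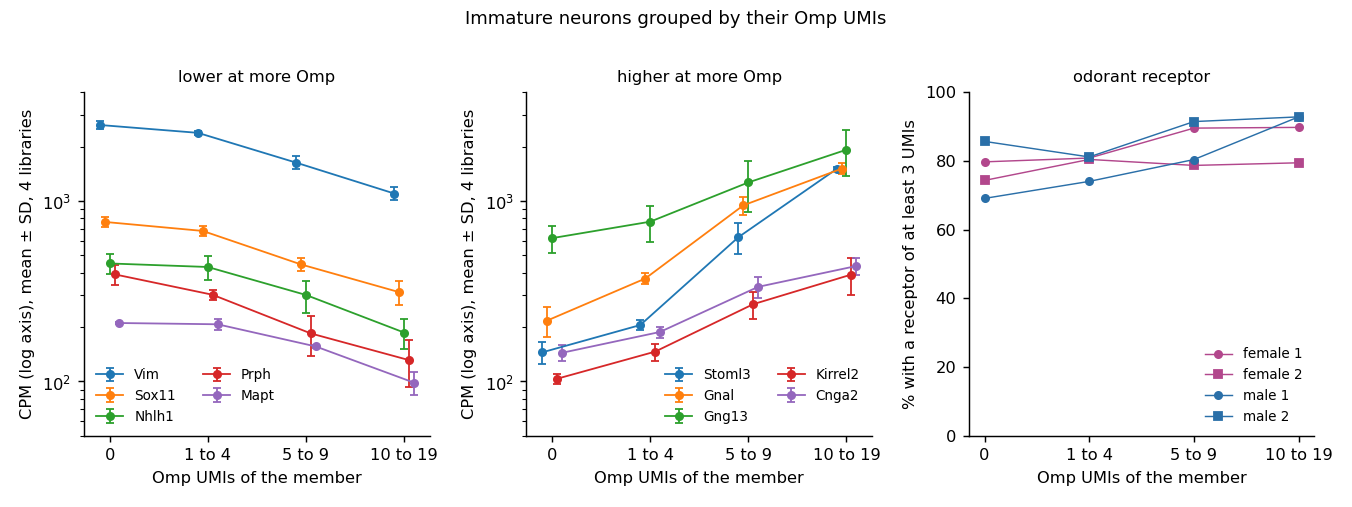
Members grouped by Omp UMIs. Left and middle panels give CPM on a log axis as mean ± SD of 4 libraries for genes lower and higher at more Omp, chosen after their values were seen. The right panel gives the percentage of members with a receptor in each library. Vim went from 2638 to 1100.0 CPM and Stoml3 from 145 to 1504 CPM.

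Sex was the one comparison that the choice of members did not use. Summed member counts of the 2 female and 2 male libraries were tested with edgeR's quasi-likelihood test. Of 11796 genes tested, 23 passed a Benjamini-Hochberg adjusted p of 0.05 (0.195%), of which males had more of 10 and less of 13. The 23 comprised 16 odorant receptors, Olfr465-ps1, 4 genes of the Y chromosome, and Bpifa1 and Bpifb1, secreted proteins of airway epithelium. Olfr465-ps1 has a pseudogene symbol and was therefore not counted among the receptors, although GENCODE M21 types it as protein coding. At an unadjusted p of 0.05 the number was 858.

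The Y chromosome genes matched the labels. Eif2s3y, a translation initiation factor gene, had 0, 0, 422 and 452 UMIs in female 1, female 2, male 1 and male 2 (edgeR adjusted p = 7.4e-05). Uty had 91 and 90 UMIs in the males, Ddx3y 78 and 80, and Kdm5d 79 and 44, and all 3 had none in the females. Female counts of 0 give no fold change.

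The receptor calls rested on a handful of cells. Each of the 16 receptors had 2 to 6 members with at least 3 UMIs (median 3), and 1 member held a median of 56.3% of the receptor's UMIs over all libraries. Olfr681, the receptor with the smallest p, had 133 and 107 UMIs in the females, from 2 members and 1 member, and none in the males (edgeR adjusted p = 0.0065). Olfr506 had 148 and 98 UMIs in the males, from 1 member each, and 0 and 2 in the females (adjusted p = 0.0092, edgeR). In the sex with more of a called receptor, each library held 1 to 4 such members.

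Bpifa1 was also decided by single cells. It had 16290, 13059, 883 and 846 UMIs in the members of female 1, female 2, male 1 and male 2, a log2 difference of male over female of -3.76 (SE 0.081, edgeR adjusted p = 5.1e-06). However, 1 member held 15387 UMIs, or 94.5% of those in female 1, and another held 11641, or 89.1% of those in female 2. The median per member was 2, 3, 2 and 2 UMIs. Without the 4 members of at least 100 Bpifa1 UMIs the log2 difference was -0.20 (edgeR adjusted p = 0.86) and 21 genes passed. Bpifb1 had 81, 45, 4 and 3 UMIs (edgeR adjusted p = 0.030), and 1 member in each female library together held 92.5% of them.

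Apart from the odorant receptors and these 2 respiratory markers, no gene of the lists passed between the sexes. All 8 dissociation response genes were lower in males, with log2 male over female from -0.32 (Fos) to -1.20 (Atf3). Their part in the sex comparison was not tested. Among markers of other cells, Krt14 averaged 18.8 CPM in females and 3.23 in males (edgeR adjusted p = 0.087), and Krt5 25.8 and 6.59. Others, such as Dnah5 and Pecam1, were higher in males. Stmn2 averaged 2958 CPM in females and 3116 in males (log2 male over female 0.11, SE 0.07, edgeR adjusted p = 0.74). Nhlh1 averaged 427 CPM in females and 343 in males (log2 male over female -0.28, SE 0.08, edgeR adjusted p = 0.49), and Dpysl3 1487 CPM in females and 1622 in males (log2 male over female 0.16, SE 0.08, edgeR adjusted p = 0.71). Counts of calls changed with the libraries used: 16 genes passed without female 1, 4 without female 2, 22 without male 1 and 35 without male 2.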

How the data were processed

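The values analysed are whole UMI counts as deposited, given for each gene in each barcode, not normalized. They were written by Cell Ranger 6.0.2, per the file headers, while the submitters' processing notes name Cell Ranger 5.0.1 and the mm10 build, so the version is unsettled. The files held 10256 to 10777 barcodes per library.

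UMI counts were summed per class and library, scaled to CPM, and compared on log2(CPM + 1) with Python 3.11.15. Thresholds and the 2-fold rule are as given above. Sexes were compared with edgeR 4.0.16 (R 4.3.3) on summed counts, with TMM scaling, filterByExpr, the quasi-likelihood test and Benjamini-Hochberg adjustment at 0.05, without a replicate block. Tested on simulated data for this comparison (11926 genes), it recovered 99% of 4-fold and 97% of 2-fold changes, with 3.45% of calls false. The simulation gave every gene the same dispersion and changed only well-counted genes. It did not model genes whose UMIs sit in a few cells, so these rates do not cover the receptor, Bpifa1 and Bpifb1 calls. Library pairs of all kinds differed by more than counting noise.

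Doublets were kept in the main results. Their score came from 2 simulated doublets per barcode and 50 neighbours, and at 0.8% per 1000 barcodes the highest scores were left out in an alternative.

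Genes named are those of the gene lists, the 20 with the largest smaller difference among genes higher than both classes, the 10 largest differences each way per stage comparison, and each gene called between sexes. The members and lists were chosen with earlier results of these data known. Positions are from GENCODE M21 (GRCm38), in which 22285 of 22399 gene IDs matched, and promoters from RefSeq on GRCm38.p6. The Cyp2g1 limit on Omp-rich neurons, the removal of members with much Bpifa1, and leaving out libraries at equal depth were chosen after seeing the data. Some genes are not reported here.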

Additional observations from a re-analysis of the deposited data

How the results depend on the processing

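Of 131 recomputed values of 10 main results, 104 kept their direction and lay within the set limit. The cause of the other 27 was not tested except where the setting itself shows it. The limit was wide: it took in 673 genes higher than in Omp-rich neurons after TMM scaling, against 924. Some of the 104 could not differ. A Cyp2g1 limit on Omp-rich neurons leaves the progenitor counts at 1491 and 1203. Changed comparison classes leave the sex difference in share at -0.3067 percentage points. The 104 therefore do not measure stability. With a mean of at least 50 CPM, fewer genes were counted: 863 were higher and 613 lower than in progenitors, 449 and 494 than in Omp-rich neurons, and 143 and 9 than in both. Without a filter, 1445 and 2325 were higher and lower than in Omp-rich neurons, and 419 and 200 than in both. The 99 genes lower than in both became 48 with a pseudocount of 5, 50 with thresholds per 10000 UMIs, 46 after thinning, 53 without high doublet scores and 31 with Omp-rich neurons limited to 30 Cyp2g1 UMIs. That limit also turned the differences from Omp-rich neurons of Cbr2 (0.12), Cyp1a2 (0.019), Ermn (0.026), Muc2 (0.0096), Sec14l3 (0.10) and Sox2 (0.19).

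The 23 genes called between sexes became 2 without a count filter, 42 with receptors left out, 36 under the stricter gate, 35 without high doublet scores, 66 with DESeq2 and 49 with a replicate block. Whether the replicate numbers pair the libraries is not settled. Deviations of same-numbered libraries correlated at 0.047, but with 2 libraries a sex both pairs give the same value, with nothing to judge it by. Leaving out 1 library gave 4 (without female 2) to 35 (without male 2), and 22 of the 23 genes missed the threshold under at least 1 alternative. Eif2s3y passed in every one in which it was fitted.

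Receptors were seen in 63.3% of members after thinning and 97.3% at 1 UMI, and 2 or more in 2.56% and 74.6% of those with any. Leaving out 1 library gave 947 to 966 genes higher and 1072 to 1131 lower than in Omp-rich neurons. The counts were 1572 to 1596 and 1268 to 1276 against progenitors, and 258 to 268 and 104 to 117 against both. A call needs a 2-fold difference in every library used, so these counts could hardly fall and do not measure stability. The same step gave 79.0% to 82.1% of members with a receptor. It gave a sex difference in share of -0.376 to -0.237 percentage points. With 2 libraries a sex, no p under 0.333 can come from the exact test of shares, and receptors held by few members are counted too thinly for a statement about sex.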

Other observations

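Several enzyme and regulator genes outside the lists were highest in the immature neurons. Cth, cystathionine gamma-lyase, averaged 44.8 ± 8.03 CPM (SD, n = 4), against 5.73 in progenitors, 5.81 in Tex15 neurons and 3.35 in Omp-rich neurons. Pycr1, an enzyme of proline synthesis, averaged 37.9 ± 7.22 CPM against 6.09, 6.99 and 3.28 in the same classes. Aldh1l2, a mitochondrial folate enzyme, averaged 12.3 ± 2.25 CPM against 1.96, 1.52 and 1.38. Eif4ebp1, a repressor of cap-dependent translation, averaged 81.9 ± 3.02 CPM against 15.5, 21.1 and 19.2. These genes were singled out after their values were seen, are not a tested list, and differed at least 2-fold from both neighbours in every library.

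Msmo1, an enzyme of sterol synthesis, averaged 89.0 ± 6.14 CPM in members, 35.5 in progenitors and 33.3 in Omp-rich neurons. Cdkn1a, which encodes a cyclin-dependent kinase inhibitor, averaged 401 ± 26.9 CPM against 62.4 and 158. Both were chosen after their values were seen.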
